A study of Mus musculus with 6 samples.

Results

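The 10 genes described here serve the liver X receptors (LXRs) and the handling of cholesterol in macrophages: Nr1h3, Nr1h2, Abca1, Abcg1, Npc1, Npc2, Nceh1, Soat1, Mylip and Srebf1. They were taken by symbol from a table of 23154 mouse genes, and each symbol matched 1 identifier. RNA sequencing was done on 2 stable lines of the mouse macrophage line RAW264.7, with 3 dishes each. The NUR77 line carried pINDUCER20b-HA-NUR77, a doxycycline-inducible construct for the HA-tagged nuclear receptor NUR77. The GFP line carried pINDUCER20b-GFP as control. Doxycycline (1 µg/mL) was given to all 6 dishes 24 hours after seeding and stayed on for 18 hours, in medium with 10% fetal calf serum. Each group is 1 stable line, so an effect of NUR77 and any other difference between the lines cannot be told apart. The spread behind every p-value is that between dishes.

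LXR alpha, encoded by Nr1h3, and LXR beta, encoded by Nr1h2, are nuclear receptors that bind oxysterols and the cholesterol precursor desmosterol. They pair with a retinoid X receptor (RXR) on DNA and switch on genes that move cholesterol out of the cell, such as Abca1 and Abcg1. In macrophages this route removes cholesterol taken up with lipoproteins and dead cells. The cholesterol first leaves the lysosome through Npc2 and Npc1, and the surplus is stored as esters made by Soat1 and released again by Nceh1.

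The classical LXR element is a direct repeat of AGGTCA with a spacer of 4 bases (DR4). That repeat (AGGTCA, any 4 bases, AGGTCA), read on both strands, matched none of the 11 RefSeq promoter windows available for 8 of the 10 genes, each window running from 250 bases before to 50 after a transcription start. Over all 32851 windows, 0.0152% held it. With up to 2 mismatches the repeat matched no window of the members either, against 3.02% of all windows. With up to 3 mismatches 21.9% of all windows held a match, so such a match is common. Of 12 other LXR target genes with a window, Fasn and Arl4c held 1, and Arl4c was called lower in the NUR77 line. Among the members the search with up to 3 mismatches found Abca1 and Srebf1. The matched stretches in these genes share the letters GGGTTACTNNCGGTCA, which were read off the promoters and are therefore no independent criterion. Those letters occur in 3 windows of the whole set, those of Abca1, Srebf1 and the fatty acid synthase gene Fasn. The stretches below (GRCm38.p6, minus strand) are shown because they hold these letters. Nr1h2, the other gene not called lower in the NUR77 line, has no such match in its window, and no window of Abcg1 or Npc1 was searched, so nothing is drawn from the element about the calls. Capitals mark the shared element, whose letters above read on the plus strand.
Abca1, chr4:53159917-53159992: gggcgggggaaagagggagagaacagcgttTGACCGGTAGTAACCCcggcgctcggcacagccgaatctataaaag
Srebf1, chr11:60210608-60210683: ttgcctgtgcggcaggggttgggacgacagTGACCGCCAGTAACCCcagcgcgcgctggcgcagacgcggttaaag
Fasn, chr11:120824727-120824797: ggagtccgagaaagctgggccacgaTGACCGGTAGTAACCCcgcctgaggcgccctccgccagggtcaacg

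The element begins 67 bases before the start of Abca1, 182 before 1 of the 3 starts listed for Srebf1 and 225 before that of Fasn. Turned to the plus strand, with the spacer bases that vary in lower case, it reads as follows.
Abca1 and Fasn: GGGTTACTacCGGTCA
Srebf1: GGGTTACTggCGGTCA
The letters AAAGGTCA, the element that NUR77 binds as a monomer (NBRE), were found in none of the members' windows and in 1.51% of all windows. The sterol regulatory element (SRE), a motif of 10 letters, was likewise not found in them, also with 1 mismatch, against 0.0913% of all windows without a mismatch and 1.95% with 1. A match is a description of letters, and no match says only that the letters are not in that window.

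Depth was 11199468 to 14354453 reads counted on genes in the NUR77 libraries and 14350490 to 15929487 in the GFP libraries. Levels are given as normalized reads, that is, a gene's reads scaled to a total of 10000000 in each library. Log2 fold changes compare NUR77 with GFP after adding 1 normalized read, and were tested with limma on 11201 genes, and a gene is called at a Benjamini-Hochberg adjusted p under 0.05. Nr4a1, which encodes NUR77, had 288, 314 and 297 normalized reads in the NUR77 libraries and 170, 148 and 161 in the GFP libraries (log2 fold change 0.90, adjusted p = 5.5e-08). Reads of the transgene and of the endogenous gene are not separated, and the labels do not name the species of the transgene. All 8 macrophage markers checked were detected, but their summed level was 26385 to 27885 normalized reads in the NUR77 line and 56242 to 57362 in the GFP line. Most of that gap was the lysozyme gene Lyz2, at 2566 ± 506 in the NUR77 line and 26664 ± 848 in the GFP line (SD, n = 3 each). Besides Lyz2 (log2 fold change -3.39), Cd68 (-1.45), Csf1r (-0.77) and Adgre1 (-0.59) were called lower and Itgam (1.18) and Fcgr1 (0.23) higher, while Ptprc (0.03) and Spi1 (0.09) were not called (limma adjusted p = 0.64 and 0.21). Of the 4 epithelial markers, 2 had no read in any library. Of the 4 T cell markers, Cd3e, Cd3g and Trac had no read either, while the kinase gene Lck had 67.9 to 77.2 normalized reads in the NUR77 line and 111 to 121 in the GFP line (log2 fold change -0.72, limma adjusted p = 3.3e-05). Among the B cell markers, Ms4a1 and Pax5 had no read, and Cd79a had 0 to 1.39 normalized reads in the NUR77 line and 1.39 to 3.14 in the GFP line. NUR77 replicate 1 stood apart in 6 skeletal muscle markers, which summed to 159 normalized reads there, against 37.4 and 39.0 in the other NUR77 libraries and 31.4 to 38.3 in the GFP libraries. The summed level of 4 osteoclast markers was 9.75 to 15.2 in the NUR77 line and 78.0 to 98.0 in the GFP line, with Calcr at 0. The adipocyte markers summed to 78.8 to 110 normalized reads in the NUR77 line and 14.4 to 15.3 in the GFP line, nearly all from Fabp4, which macrophages also express. Fibroblast markers summed to 15.9 to 30.4 in the NUR77 line and 7.53 to 9.06 in the GFP line, with Pdgfra at 0. Of the 4 endothelial markers, Pecam1, which macrophages also express, had 26.3 to 30.7 normalized reads in the NUR77 line and 0 to 1.96 in the GFP line, and Cdh5, Kdr and Tek stayed below 3 in every library. The part of these differences in the results was not tested. In such bulk samples, fewer cells of a type and less RNA per cell cannot be told apart.

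All 10 genes passed the filter at a mean of 10 normalized reads. In the NUR77 line 7 of them fell (Nr1h3, Abcg1, Npc1, Npc2, Nceh1, Soat1 and Mylip), Abca1 rose, and Nr1h2 and Srebf1 were not called. The lines differ widely: 66.7% of all tested genes were called, 28.3% as lower and 38.4% as higher, so that 8 called of 10 is near the background while 7 of 10 lower is above its rate. The excess of higher calls (4305 higher, 3170 lower) holds for the deposited scaling; TMM gave 3727 higher and 3705 lower, upper-quartile scaling 3686 and 3741, and median-of-ratios scaling 3747 and 3695. Falls of 2-fold or more were found in 4 of the 10 (Nceh1, Abcg1, Nr1h3 and Soat1), against 6.19% of all tested genes. The libraries of the lines did not overlap in 9 of the 10 genes, against 70.6% of all tested genes. The median log2 fold change was -0.79 over the 10 genes and 0.06 over all tested genes. Together the 10 genes held 0.121, 0.125 and 0.131% of the normalized reads in the NUR77 libraries and 0.248, 0.249 and 0.241% in the GFP libraries. The rule for choosing the genes did not use these values, but the genes were chosen with earlier results of the same data known.

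**Figure D1:**
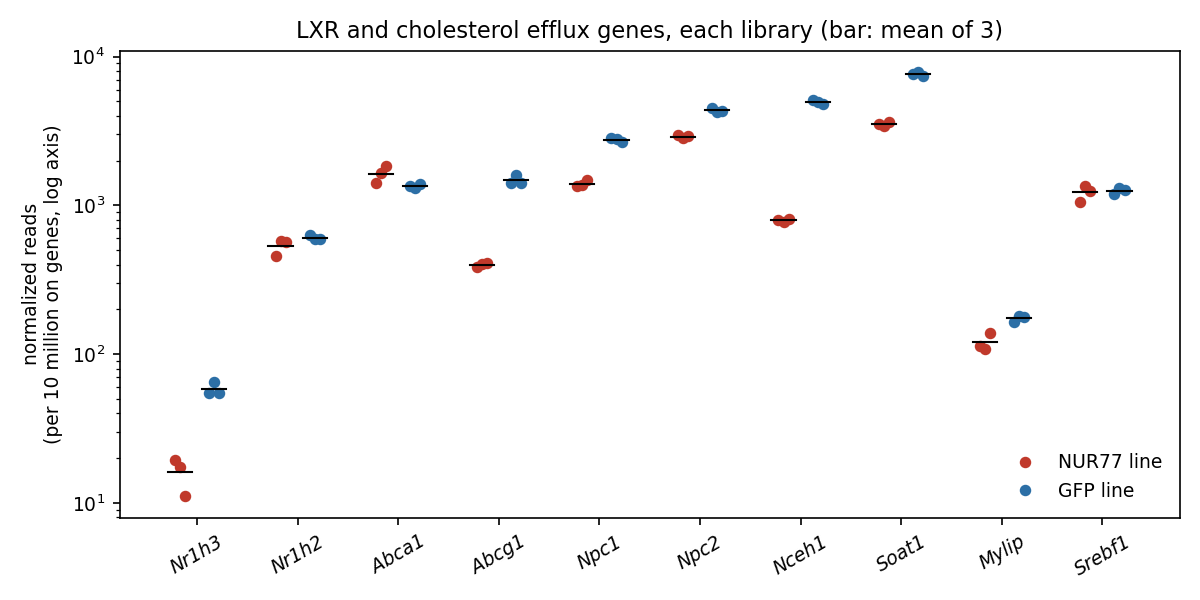
Normalized reads (log axis) of the 10 genes in each library, NUR77 line in red left of the GFP line in blue, with a bar at the mean of 3. The red points lie below the blue ones in 8 genes and above them in Abca1, and they overlap in Srebf1.

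The receptors themselves were unequal. Nr1h3 (ENSMUSG00000002108, chromosome 2, 91184061 to 91202834, minus strand, mm10), the LXR isoform enriched in macrophages and liver, was the least abundant of the 10 genes. It had 19.6, 17.4 and 11.1 normalized reads in the NUR77 libraries and 55.1, 64.7 and 54.9 in the GFP libraries. Every NUR77 library was below every GFP library, and the mean was 27.6% of that in the GFP line (log2 fold change -1.83, SE 0.21, limma adjusted p = 9.5e-07). The values rest on 61 reads over the NUR77 libraries and 266 over the GFP libraries. This makes Nr1h3 the least precise of the 10, with a coefficient of variation of 27.5% in the NUR77 line. In the annotation, 34 of its exon bases overlap exons of Gm13783 on the same strand.

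Nr1h2 (ENSMUSG00000060601, chromosome 7, 44549616 to 44553951, minus strand), the broadly expressed isoform, had 455, 578 and 570 normalized reads in the NUR77 libraries and 635, 591 and 592 in the GFP libraries. The libraries did not overlap, but the closest NUR77 and GFP values lie near each other, and replicate 1 of the NUR77 line is the low one. The log2 fold change was -0.19 (95% interval -0.36 to -0.02) and missed the threshold (limma adjusted p = 0.051). It was -0.25 and passed under TMM scaling (adjusted p = 0.010). Without NUR77 replicate 1, the library with more muscle reads, it was -0.08 (adjusted p = 0.29).

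Levels of the isoforms were then compared within each library, per kilobase of annotated exon, with 1 normalized read added to each gene. Nr1h2 exceeded Nr1h3 by 16.6, 23.6 and 35.3-fold in the NUR77 libraries and by 8.51, 6.76 and 7.96-fold in the GFP libraries. LXR beta thus made up more of the LXR transcript in both lines, and the lines did not overlap in this ratio. The log2 ratio of Nr1h3 to Nr1h2 averaged -4.58 ± 0.55 in the NUR77 line and -2.95 ± 0.17 in the GFP line, a difference of -1.64 (exact two-sided permutation p = 0.10, the smallest that 3 against 3 libraries can give).

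**Figure D2:**
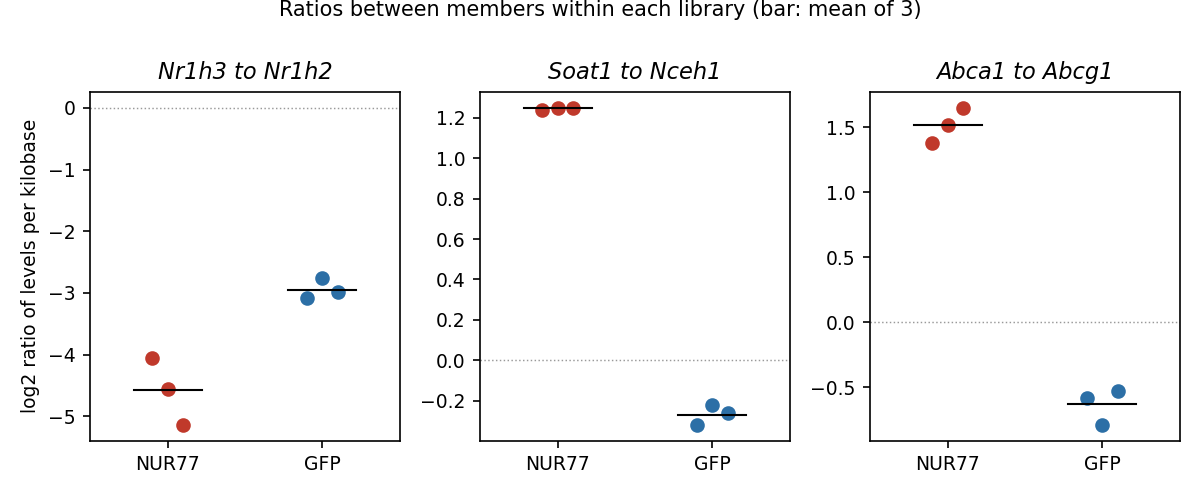
Log2 ratios of levels per kilobase between 2 genes within each library, for Nr1h3 to Nr1h2, Soat1 to Nceh1 and Abca1 to Abcg1, NUR77 line left of the GFP line, bars at the mean of 3. No panel has overlapping lines, and the last 2 ratios are above 0 in the NUR77 line and below 0 in the GFP line.

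The exporters moved in opposite directions. Abca1 (ENSMUSG00000015243, chromosome 4, 53030787 to 53159895, minus strand) passes cholesterol and phospholipid to lipid-poor apolipoprotein A-I. It had 1417, 1646 and 1838 normalized reads in the NUR77 libraries and 1342, 1311 and 1392 in the GFP libraries. It was higher in all 3 NUR77 libraries, although replicate 1 was only slightly above the highest GFP library. The mean was 1.21 times that of the GFP line (log2 fold change 0.27, SE 0.08, limma adjusted p = 0.0059). The log2 fold change was 0.37 without NUR77 replicate 1 and 0.18 without NUR77 replicate 3 (limma adjusted p = 9.1e-05 and 0.023).

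Abcg1 (ENSMUSG00000024030, chromosome 17, 31057675 to 31117988, plus strand) promotes the transfer of cholesterol to high-density lipoprotein particles. It had 383, 404 and 411 normalized reads in the NUR77 libraries and 1414, 1601 and 1412 in the GFP libraries. The NUR77 line was at 27.1% of the GFP line (log2 fold change -1.88, SE 0.06, limma adjusted p = 7.8e-14), well outside the spread between dishes. Per kilobase, Abca1 stood at 2.60, 2.86 and 3.14 times the level of Abcg1 in the NUR77 libraries and at 0.669, 0.577 and 0.694 times in the GFP libraries. The order of the exporters was therefore reversed between the lines, with a difference of 2.15 in the log2 ratio (exact two-sided permutation p = 0.10, the smallest possible).

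Npc2 and Npc1 hand cholesterol from the lysosome lumen to its membrane, and their loss causes Niemann-Pick disease type C. Both fell, Npc1 more than Npc2. Npc1 (ENSMUSG00000024413, chromosome 18, minus strand) had 1346, 1380 and 1483 normalized reads in the NUR77 libraries and 2846, 2802 and 2665 in the GFP libraries (log2 fold change -0.98, SE 0.05, limma adjusted p = 4.7e-11). The NUR77 values were 50.6% of the GFP values on average, with no overlap. In the annotation, 511 of its exon bases overlap exons of Rmc1 and 90 those of an antisense gene on the other strand. The libraries were strand-specific, but no source used here tells whether the counting was.

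Npc2 (ENSMUSG00000021242, chromosome 12, 84754562 to 84773152, minus strand), the soluble partner of Npc1, had 2957, 2821 and 2913 normalized reads in the NUR77 libraries and 4511, 4244 and 4335 in the GFP libraries. It fell to 66.4% of the GFP level (log2 fold change -0.59, SE 0.05, limma adjusted p = 9.9e-09). Its spread between dishes was among the smallest of the 10 genes, with coefficients of variation of 2.41% in the NUR77 line and 3.10% in the GFP line.

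The enzymes of the cholesteryl ester cycle fell as well, the hydrolase more than the synthase. Nceh1 (ENSMUSG00000027698, chromosome 3, 27182965 to 27284608, plus strand), the neutral cholesteryl ester hydrolase that frees stored cholesterol, showed the largest change of the 10 genes. It had 802, 778 and 816 normalized reads in the NUR77 libraries and 5088, 4942 and 4794 in the GFP libraries, a 6.19-fold fall. The log2 fold change was -2.63 (SE 0.05, limma adjusted p = 8.6e-17). By log2 fold change it ranked 155 among the falls of all tested genes. Nceh1 was the most abundant of the 10 per kilobase in the GFP line, at 941 ± 28.1 normalized reads, and stood in place 6 in the NUR77 line, at 152 ± 3.66 (SD, n = 3 each). Per kilobase, its GFP level was above that of Soat1 in every library, whereas its NUR77 level lay within the range of Abca1 and Nr1h2. Without division by exon length, Nceh1 was below Soat1 in every GFP library (7603, 7889 and 7439 normalized reads of Soat1).

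Soat1 (ENSMUSG00000026600, chromosome 1, 156424525 to 156474331, minus strand) encodes the acyltransferase that turns free cholesterol into esters. It had 3539, 3445 and 3627 normalized reads in the NUR77 libraries and 7603, 7889 and 7439 in the GFP libraries (log2 fold change -1.11, SE 0.05, limma adjusted p = 1.9e-12). The NUR77 line was at 46.3% of the GFP line. Because Nceh1 fell further, Soat1 stood per kilobase at 2.37, 2.37 and 2.38 times the level of Nceh1 in the NUR77 libraries and at 0.802, 0.856 and 0.833 times in the GFP libraries. The difference in the log2 ratio was 1.52 (exact two-sided permutation p = 0.10, the smallest possible). Whether Soat1 stood above or below Nceh1 in the GFP line depends on the division by exon length. The difference between the lines does not, and was 1.52 without it as well.

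Mylip and Srebf1 are LXR target genes that act on uptake and synthesis. Mylip (ENSMUSG00000038175, chromosome 13, 45389742 to 45412022, plus strand) encodes IDOL, a ubiquitin ligase that lowers lipoprotein uptake. It had 114, 109 and 140 normalized reads in the NUR77 libraries and 165, 182 and 177 in the GFP libraries, a fall to 69.4% without overlap (log2 fold change -0.53, SE 0.11, limma adjusted p = 3.3e-04). The highest NUR77 library, replicate 3, was still below every GFP library.

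Srebf1 (ENSMUSG00000020538, chromosome 11, 60199089 to 60222581, minus strand) encodes SREBP-1, which drives fatty acid synthesis; the LXR-responsive isoform SREBP-1c and isoform SREBP-1a start at different promoters and are not separated by counts per gene. It had 1060, 1348 and 1260 normalized reads in the NUR77 libraries and 1187, 1318 and 1271 in the GFP libraries. This was the only one of the 10 genes whose lines overlapped (log2 fold change -0.05, 95% interval -0.21 to 0.12, limma adjusted p = 0.60). Without NUR77 replicate 1, which held the lowest value, the log2 fold change was 0.05 (adjusted p = 0.46). Of its exon bases, 109 overlap exons of Rai1 on the opposite strand and 66 overlap the microRNA gene Mir6922 on the same strand.

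**Figure D3:**
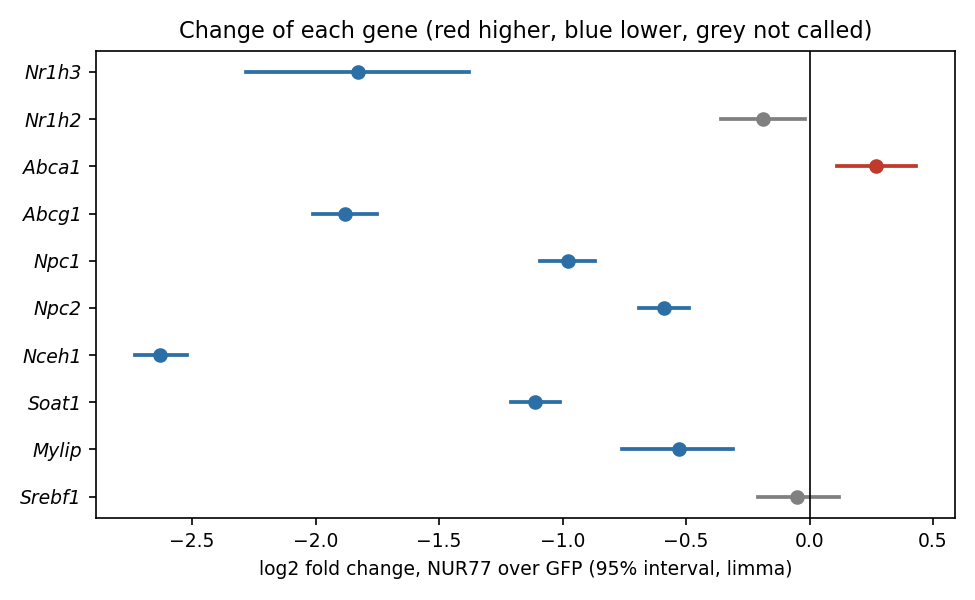
Log2 fold change (NUR77 over GFP, limma) of each gene with its 95% interval, red for called higher, blue for called lower and grey for not called. Intervals run from -2.73 to -2.52 in Nceh1 to 0.11 to 0.43 in Abca1, and that of Srebf1 includes 0.

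Per kilobase of annotated exon, the NUR77 line ran from Npc2 (533 ± 12.8 normalized reads) through Soat1, Srebf1, Nr1h2, Abca1, Nceh1, Npc1, Abcg1 and Mylip down to Nr1h3 (6.39 ± 1.75). In that line Nr1h2 and Abca1 overlapped in their libraries, as did Abca1 and Nceh1. The GFP line ran from Nceh1 and Npc2 (802 ± 24.9) through Soat1, Npc1, Srebf1, Abcg1, Nr1h2, Abca1 and Mylip down to Nr1h3 (23.1 ± 2.22), with overlap between Npc2 and Soat1 and between Srebf1 and Abcg1. Exon lengths are unions over all annotated transcripts, so a gene with long rare isoforms is understated in this order. Abca1 held place 5 in the order of the NUR77 line and place 8 in that of the GFP line.

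LXRs need an RXR partner. In a list of 12 RXR and LXR coregulator genes, 11 were tested, 4 were higher, 1 was lower and 6 were not called (median log2 fold change 0.10, against 0.06 for all tested genes). The share called higher is near the 38.4% of all tested genes, whereas 1 of 11 lower is below their 28.3%. Of all tested genes 66.7% were called in either direction. The count called lower depended on the scaling, at 5, 5 and 4 under TMM, upper-quartile and median-of-ratios scaling and 3 with a replicate block. The gene that fell was Rxra, which encodes RXR alpha, with 128, 139 and 131 normalized reads in the NUR77 libraries and 601, 662 and 616 in the GFP libraries (log2 fold change -2.23, limma adjusted p = 8.7e-14). No NUR77 library came near the GFP range. Rxrb, which encodes RXR beta and is named here after its values were seen, rose slightly (log2 fold change 0.24, adjusted p = 0.0067), with 722, 839 and 905 normalized reads in the NUR77 libraries and 679, 699 and 698 in the GFP libraries, and Rxrg had no read in any library. The corepressor gene Ncor1 (log2 fold change 0.28) and the corepressor subunit gene Tbl1x (0.31) rose, while Tbl1xr1 (-0.07) and the coactivator gene Ncoa3 (-0.08) were not called (limma adjusted p = 0.28 and 0.20). Under TMM scaling both passed as lower, at -0.13 and -0.14 (adjusted p = 0.046 and 0.027).

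Of 8 genes for enzymes that make or remove sterol ligands, 4 were tested and 3 of these fell, against 28.3% of all tested genes called lower. Cyp27a1, which makes 27-hydroxycholesterol, had 247, 288 and 282 normalized reads in the NUR77 libraries and 583, 538 and 564 in the GFP libraries (log2 fold change -1.04, limma adjusted p = 1.5e-09). Sc5d (-0.62) and Dhcr7 (-0.21), late enzymes of cholesterol synthesis, also fell, the call of Dhcr7 being lost without the mean-variance trend (adjusted p = 0.063) and without NUR77 replicate 3 (0.092) or GFP replicate 2 (0.057). Ch25h, which makes 25-hydroxycholesterol, and Cyp7b1 had no read in any library.

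Other LXR target genes of macrophages went both ways. Of 17 listed, 12 were tested, 4 rose, 2 fell and 6 were not called (median log2 fold change -0.03), against 38.4% higher and 28.3% lower over all tested genes. Under each of the 3 other scalings, and without NUR77 replicate 2, 5 were lower. Arl4c, a small GTPase gene, had 24.1, 11.1 and 11.1 normalized reads in the NUR77 libraries and 212, 227 and 200 in the GFP libraries (log2 fold change -3.79, limma adjusted p = 2.7e-08). Pltp, the phospholipid transfer protein gene, fell too (-0.85, adjusted p = 1.6e-09). The lipoprotein lipase gene Lpl rose (0.48, adjusted p = 6.2e-06). Cd5l, a secreted survival factor of macrophages, had 360 reads over the NUR77 libraries and 3 over the GFP libraries. Scaled to the pooled depth of each line, these reads gave a ratio of 143 (exact 95% binomial interval 48.7 to 699, counting error only). Fasn, which carries the same element as Abca1 in its window, was at -0.15 (adjusted p = 0.054) and passed as lower under TMM scaling (-0.21, adjusted p = 0.0096). The desaturase gene Scd2 was at -0.06 (adjusted p = 0.24) and likewise passed under TMM scaling (-0.13, adjusted p = 0.027). Apoe, named after its values were seen, was low in both lines, at 12.5 ± 4.71 normalized reads in the NUR77 line and 18.2 ± 1.85 in the GFP line (limma adjusted p = 0.092).

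**Figure D4:**
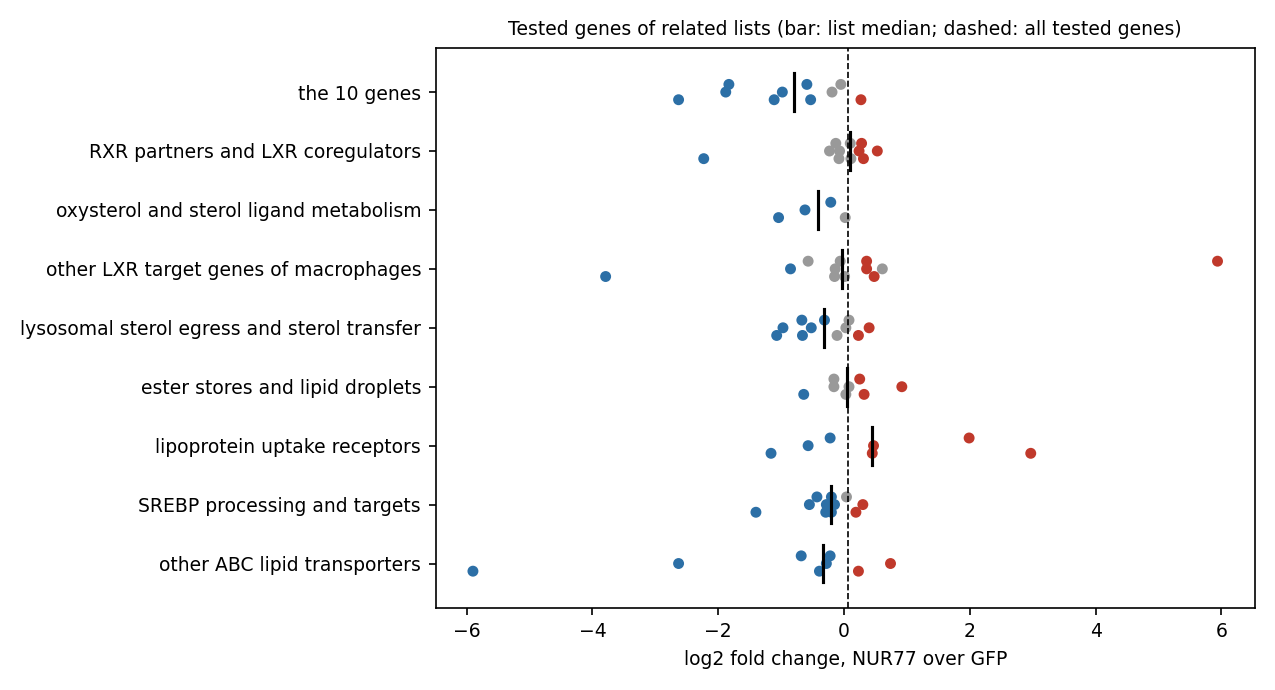
Log2 fold change (NUR77 over GFP) of the tested genes of each list, red called higher, blue called lower, grey not called, with a bar at the list's median and a dashed line at 0.06, the median of all tested genes. The bar of the 10 genes lies at -0.79 and that of the lipoprotein uptake receptors at 0.45.

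The steps before and after the Npc proteins were measured in 12 genes of lysosomal sterol egress and transfer, of which 11 were tested, 6 fell and 2 rose (median -0.31), against 28.3% lower and 38.4% higher over all tested genes. Lipa, the acid lipase that frees cholesterol from lipoprotein esters in the lysosome, had 2900, 2783 and 2828 normalized reads in the NUR77 libraries and 5850, 6250 and 5833 in the GFP libraries (log2 fold change -1.07, limma adjusted p = 4.1e-12). Its fall is close in size to that of Npc1. The lysosomal membrane protein genes Lamp1 (-0.97) and Scarb2 (-0.66) and the oxysterol-binding protein-like gene Osbpl1a (-0.67) fell as well. Stard4 and Osbpl2, which carry sterol between membranes, were at 0.08 and -0.11 (adjusted p = 0.32 and 0.10), and Osbpl2 passed as lower under TMM scaling (-0.17, adjusted p = 0.014).

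All 7 tested lipoprotein uptake receptors of 8 listed were called, 4 higher and 3 lower (median 0.45), against 66.7% called, 38.4% higher and 28.3% lower over all tested genes. Cd36, a scavenger receptor for oxidized lipoprotein, had 14845, 12502 and 11472 normalized reads in the NUR77 libraries and 3302, 3121 and 3265 in the GFP libraries (log2 fold change 1.99, limma adjusted p = 1.0e-10). Lrp1, a large endocytic receptor, had 7460, 7799 and 8937 in the NUR77 libraries and 17642, 18453 and 17656 in the GFP libraries (-1.16, adjusted p = 2.6e-11). Msr1, the class A scavenger receptor gene, rose (0.47). The uptake receptors therefore did not share a direction.

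Genes of SREBP processing and cholesterol synthesis fell in 8 of 11 tested cases and rose in 2 (median -0.20), against 28.3% lower and 38.4% higher over all tested genes. Insig1, which holds the SREBP escort in the endoplasmic reticulum, had 446, 414 and 338 normalized reads in the NUR77 libraries and 1182, 938 and 1037 in the GFP libraries (log2 fold change -1.40, limma adjusted p = 2.8e-07). Hmgcs1 (-0.43), an early enzyme of the pathway, fell, and Idi1 rose (0.30). Scap, the escort itself, was at 0.04 (adjusted p = 0.71), and at -0.02 under TMM scaling (adjusted p = 0.80).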

How the data were processed

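The values the authors deposited are log2 values of single libraries. Judged from the values, each is log2(normalized reads + 1), and the normalized reads of a library sum to 10000000. The submitters' processing notes name mm10 and, with no roles, TopHat2 2.1, HTSeq and DESeq2. Annotation release and strand setting: not given in the sources used here. All values were whole multiples of 1 read (100% within a tolerance of 0.1 read), so whole reads were recovered for a limma-voom alternative. The scaling sets equal totals, so abundant genes that differ between the lines shift all others slightly. The series table and the library files differed by 0.

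The GENCODE mouse annotation (GRCm38) named 22872 of 23154 identifiers and gave coordinates and exon lengths. The deposited scale was tested with limma (version 3.58.1, R 4.3.3) with trend and robust moderation on all 6 libraries, without covariates. Genes averaging at least 10 normalized reads entered, and Benjamini-Hochberg adjustment ran over these 11201 genes. Ratios were tested by exact permutation. Motifs were searched in RefSeq promoters (GRCm38.p6). The titles gave each sample's line. Libraries of a line differed beyond sampling noise (chi-square per degree of freedom of 2.48 or more).

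The 10 genes and the 8 related lists were chosen with earlier results of these data known, and no list was tested as a set. All 10 genes are named. Of each list, values are given for up to 4 called genes with the largest change, at least 50 normalized reads on average in the higher line and no overlap, and for up to 2 genes not called with the highest mean; others are stated as such, and some genes the rule selects are not reported here. Intervals on reads cover counting error only. No promoter window of Abcg1 or Npc1 was used here.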

Additional observations from a re-analysis of the deposited data

How the results depend on the processing

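Across 16 alternative fits (pseudocounts of 0.5 and 5, no filter, a filter at a mean of 50, TMM, upper-quartile and median-of-ratios scaling, no trend, a replicate block, limma-voom, and each library left out), the count of members called higher was 1 in each, and that of members called lower was 6 to 8. Nr1h3 is below the filter at 50. Of 159 values of members, 152 kept their direction and their side of the threshold. The others were Nr1h2, which passed as lower without a filter (adjusted p = 0.043), under the 3 scalings (0.010, 0.0092 and 0.010) and without NUR77 replicate 2 or 3 (0.025 each), and Srebf1, which turned to 0.05 without NUR77 replicate 1 (-0.12 to 0.05 over the left-out libraries). The cause was not tested. Abca1 ranged from 0.18 to 0.37 (adjusted p = 9.1e-05 to 0.048).

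With the replicate number as a block, 4365 genes were higher and 3220 lower, against 4305 and 3170, and 1 member was higher and 7 lower, as before. Same-numbered libraries did not deviate together (correlations of 0.002, 0.114 and 0.045), and not every library correlated best with its own number, so the numbers were not taken as pairs. Leaving out 1 library gave 3960 to 4232 higher and 2788 to 3146 lower genes. The ratio differences ranged from -1.90 to -1.36 for Nr1h3 to Nr1h2, 1.49 to 1.54 for Soat1 to Nceh1 and 2.07 to 2.22 for Abca1 to Abcg1.

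Scap turned to -0.02, -0.03 and -0.02 under TMM, upper-quartile and median-of-ratios scaling and -0.07 without NUR77 replicate 2 (-0.07 to 0.13 over the left-out libraries). The count of coregulators called lower was 1, and 5, 5 and 4 under TMM, upper-quartile and median-of-ratios scaling, 3 with the block and 2 without a filter or without NUR77 replicate 2, NUR77 replicate 3 or GFP replicate 1. For other LXR targets it was 2, and 5 under each scaling and without NUR77 replicate 2. For ester store genes it was 1, and 2 under each scaling and without NUR77 replicate 3. Over all tested genes the number called lower also rose, from 3170 to 3705, 3741 and 3695 under TMM, upper-quartile and median-of-ratios scaling. The count of SREBP genes called higher was 2, and 1 under upper-quartile scaling and without NUR77 replicate 2. Without a filter 2 sterol ligand genes were higher, against 0. The count tests of edgeR and DESeq2 were not run, and limma-voom was run on the recovered reads in their place. Among the 10 members, depth limits Nr1h3 most, with 61 reads in the NUR77 line.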

Other observations

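Other ABC transporters of lipids and drugs were called in all 8 tested cases of 11 listed, 6 lower and 2 higher (median log2 fold change -0.34), against 66.7% called, 28.3% lower and 38.4% higher over all tested genes. Abca9 had no read in the NUR77 line and 268 reads in the GFP line, at least 74.7-fold lower (3 reads over the line). Abcg2, an exporter of the same subfamily as Abcg1, had 19.6, 16.7 and 13.5 normalized reads in the NUR77 libraries and 103, 126 and 95.4 in the GFP libraries (log2 fold change -2.63, limma adjusted p = 9.2e-10). Abcb1b fell (-0.68) and Abcc1 rose (0.74). Abcb1b has a close paralog, Abcb1a, so that reads may have been split or dropped in counting. Among genes of ester stores and lipid droplets, 8 of 9 were tested, 3 rose and 1 fell (median 0.05), against 38.4% higher and 28.3% lower over all tested genes. The droplet coat gene Plin2 fell (-0.64), whereas the triglyceride synthesis gene Dgat2 (0.92) and the lipase activator gene Abhd5 (0.32) rose. Lipe, the hormone-sensitive lipase, rose by 0.25 (adjusted p = 0.022), a call lost under TMM scaling (0.19, adjusted p = 0.072) and without GFP replicate 1 (0.14, adjusted p = 0.15). Pnpla2 and Plin3 were at 0.08 and -0.16 (adjusted p = 0.39 and 0.064), and Plin3 passed as lower under TMM scaling (-0.22, adjusted p = 0.011).

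Around the members with the largest falls, the neighbours on the chromosome showed no fall in their median log2 fold change. They are described here without a test, as the 12 tested genes on each side. Around Nceh1 the median log2 fold change of these 24 genes was 0.02, with 10 called higher and 10 lower. Over all tested genes 38.4% were called higher and 28.3% lower, so 10 of 24 lower is above that rate. Around Abcg1 the median was 0.23, around Nr1h3 0.05, around Soat1 0.09 and around Npc1 0.04. Single neighbours went either way: Acp2, next to Nr1h3, was at -0.96 and Osbpl1a, next to Npc1, at -0.67, whereas Ect2 and Tnfsf10, next to Nceh1, were at 0.26 and 4.62. Abcg1 and Nr1h3 had the lowest log2 fold change in their windows, while Nceh1, Soat1 and Npc1 ranked 2 from the lowest in theirs.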
